A study of Homo sapiens with 18 samples.

Results

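The Notch pathway genes described here are 10 transcripts of that signalling system: the receptors NOTCH1, NOTCH2 and NOTCH3, the ligands JAG1, JAG2 and DLL1, and the target genes HES1, HES4, HEY1 and NRARP. They were chosen by gene name, and each of the 10 names matched 1 of the 57500 genes in the table of expression values. RNA came from NCI-H3122, NCI-H2228 and SNU2535, established human non-small cell lung cancer lines whose genotype the labels give as WT in every sample. The plated cells were given either the solvent DMSO or TRI-611 at 3 µM and were collected 3 h later. TRI-611 is a molecular glue that degrades ALK, per the title of the series: a small molecule that directs this receptor tyrosine kinase to destruction. NCI-H3122 and NCI-H2228 are widely used as lines that carry an EML4-ALK fusion. Each of the 6 groups, 3 lines with either treatment, had 3 libraries of polyadenylated RNA.

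Notch receptors are single-pass membrane proteins that bind Jagged or Delta-like ligands on neighbouring cells. Binding leads to cleavage by ADAM metalloproteases and then by the gamma-secretase complex, which releases the intracellular domain, and this domain joins the DNA-binding protein RBPJ and Mastermind coactivators on target genes. HES and HEY genes encode transcriptional repressors, and HES1 protein also represses its own gene. In lung epithelium, Notch signalling is known for favouring secretory over ciliated and neuroendocrine fates.

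Levels were TPM, read abundances scaled by transcript length and to a fixed sum per library, and 23766 to 25921 genes were above 0 per library. The read totals behind TPM are unknown. Replicate libraries of a group correlated at 0.991 to 0.993 over genes on the log2 scale, and 0 pairs of libraries were identical. Mitochondrially encoded genes took 7.59% to 15.0% of the TPM of a library, with means of 8.70% under DMSO and 9.13% under TRI-611 for SNU2535, 11.2% and 12.5% for NCI-H3122, then 9.07% and 10.8% for NCI-H2228. With those genes left out of the total, no member lost its treatment call and NOTCH3 gained one in NCI-H2228 (adjusted p = 0.0498). All 6 epithelial markers examined (EPCAM, CDH1, KRT7, KRT8, KRT18 and KRT19) were at 1 TPM or more under DMSO in each line, although CDH1, the epithelial cadherin, stood at 5.65 ± 0.0778 TPM (SD, n = 3) in NCI-H2228 against 567 ± 5.13 in SNU2535. Of 4 lung adenocarcinoma markers, SNU2535 and NCI-H2228 had 3 at that level and NCI-H3122 had 1, NKX2-1, with NAPSA at 0.0848 ± 0.0423 TPM. None of 4 neuroendocrine markers (CHGA, SYP, INSM1 and NEUROD1) reached 1 TPM in any line. Of 3 fibroblast markers 1 did, COL1A1, at 135 TPM in SNU2535, 12.3 TPM in NCI-H3122 and 380 TPM in NCI-H2228. The labels do not state that the libraries of a group were grown as separate cultures, so the p-values below measure spread among these samples only, and that spread may be technical.

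The promoters of HES1, HES4 and NRARP are shown because these 3 targets had the largest falls among the members in SNU2535. The sequences are RefSeq promoter stretches on GRCh38.p14, 5′ to 3′ on the strand of the gene, from base -140 to base -51 relative to the transcription start, with the RBPJ core motif TGGGAA in capitals. HES1 lies at chr3:194136008-194136097 on the plus strand, HES4 at chr1:1000148-1000237 on the minus strand, and NRARP at chr9:137302322-137302411 on the minus strand.
HES1: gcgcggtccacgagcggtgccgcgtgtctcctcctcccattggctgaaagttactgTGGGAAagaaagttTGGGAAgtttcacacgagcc
HES4: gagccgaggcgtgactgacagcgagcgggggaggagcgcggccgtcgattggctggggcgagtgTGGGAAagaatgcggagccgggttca
NRARP: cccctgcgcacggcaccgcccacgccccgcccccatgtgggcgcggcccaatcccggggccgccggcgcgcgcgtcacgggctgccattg

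TGGGAA was searched on both strands from 250 bases before to 50 bases after the start, in 8 members with an entry in the promoter table (DLL1 and HEY1 were not used). HES1 held 2 matches, starting at bases -84 and -70, and HES4 held 1, at base -76, all on the strand of the gene. NOTCH1, NOTCH2, NOTCH3, JAG1, JAG2 and NRARP held 0. Of 35116 promoters of the same length, 24.0% held at least 1 match and 3.80% held 2 or more. The longest stretch common to the HES1 and HES4 windows was the 12 bases tgTGGGAAagaa, found in 6 other promoters. The N-box CACNAG, a sequence bound by HES repressors, was found 4 times in the HES1 window, where it starts at bases -165, -132, -58 and 15. NOTCH1 held 2 matches, NOTCH2, NOTCH3 and NRARP 1 each, and JAG1, JAG2 and HES4 0. Of all promoters, 38.0% held at least 1 match and 8.94% held 2 or more. GENCODE release 29 puts the 5′ end of HES4 at base 1000172 of chromosome 1, so part of the HES4 stretch lies inside the gene in that annotation. A match describes letters in a window, not a bound site.

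Of the 10 members, 8 passed the filter for testing in SNU2535 (at least 3 of 6 libraries with 1 TPM or more) and all 10 did in both other lines. Differences were tested by limma on log2(TPM + 1) and called at a Benjamini-Hochberg adjusted p under 0.05 over all genes tested, a scale that understates the change of low genes. In SNU2535, 6 of 8 tested members were called, all lower, while 28.7% of all 16252 genes tested were called, 10.7% higher and 18.1% lower. After quantile normalization the split was 1 higher and 4 lower. The count was 4 with no filter, under median-ratio scaling and in limma without trend and robust settings. With 1 library left out it was 4 or 5. In NCI-H3122, 8 of 10 were called, 5 higher and 3 lower, against 34.1% of all genes, 20.6% higher and 13.4% lower. One of those 5, DLL1, passed the filter only through its TRI-611 libraries, so its rise was favoured in advance. In NCI-H2228, 3 of 10 were called, 1 higher and 2 lower, against 11.2% of all genes, 4.80% higher and 6.40% lower. That count was 0 with no filter and in limma without trend and robust settings. It was 1 without DMSO replicate 1 or TRI-611 replicate 1. Tested members had a median log2 change of -0.40 in SNU2535 beside -0.02 over all genes. It was 0.24 beside 0.05 in NCI-H3122 and 0.03 beside 0.01 in NCI-H2228. The members thus changed in a different mix of directions in each line, and HES1 was the only one called, and lower, in all 3. Its NCI-H2228 call was lost in 5 of 16 alternatives. In these bulk libraries, a lower level in every cell and a loss in some cells cannot be told apart.

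**Figure D1:**
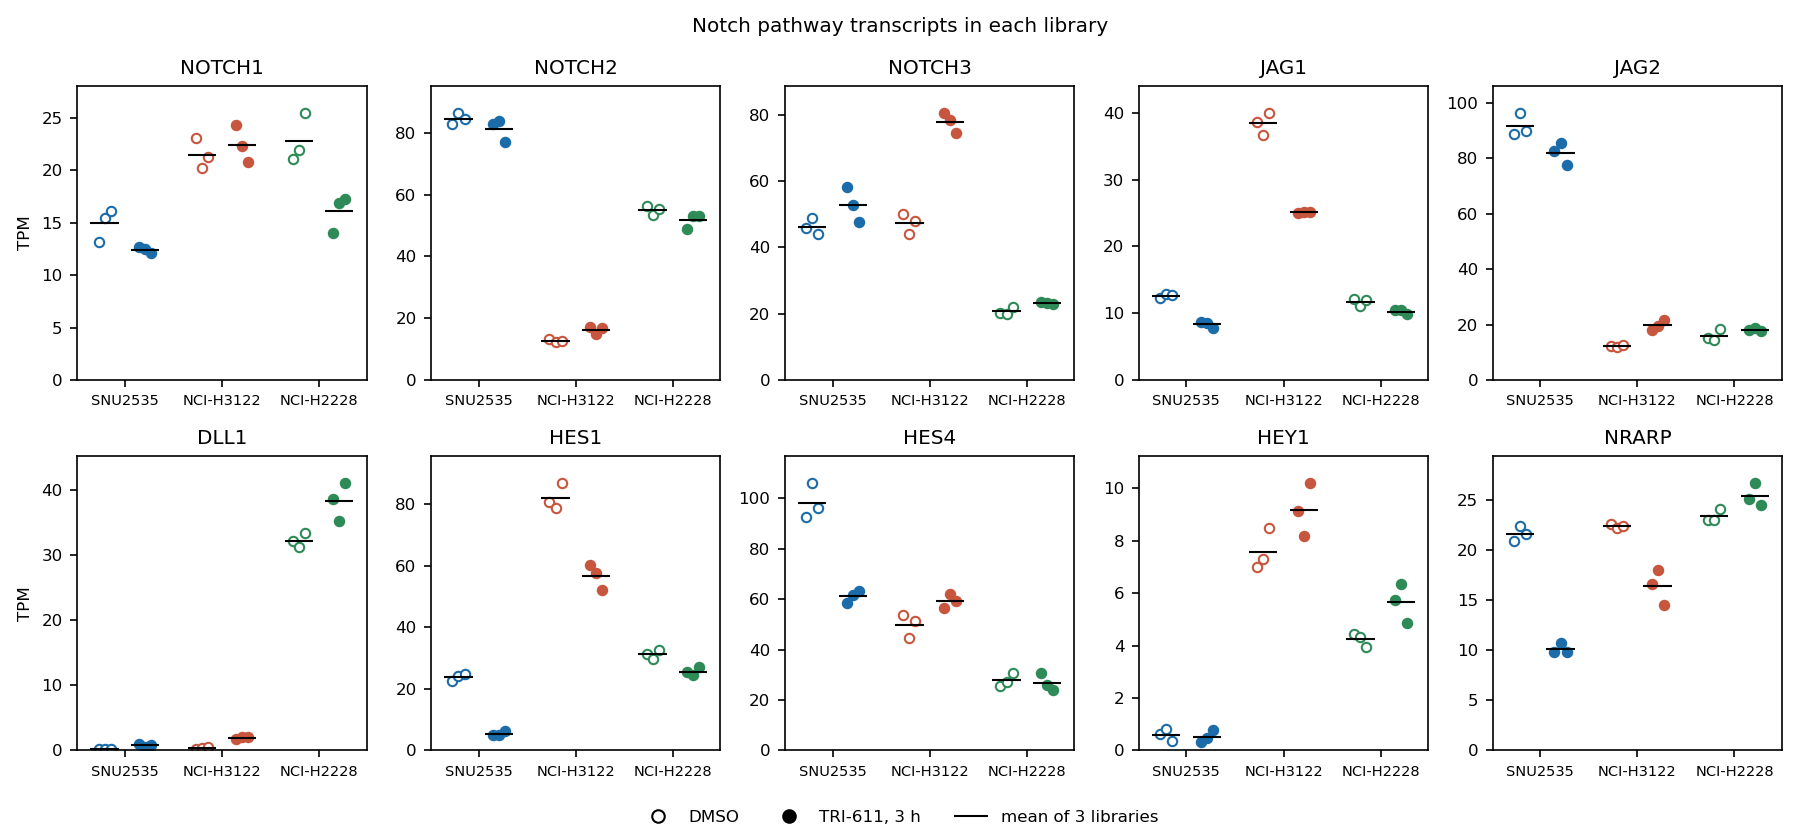
Level of each Notch pathway transcript in TPM (vertical axis, from 0) in the 18 libraries by line (horizontal axis), with open circles for DMSO, filled circles for 3 h of TRI-611 and a black line at the mean of 3 libraries. The TRI-611 libraries of SNU2535 lie below all DMSO libraries of that line for HES1, HES4, NRARP and JAG1, while those of NCI-H3122 lie above for NOTCH3 and JAG2.

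Among the receptors, NOTCH3 and NOTCH2 rose in NCI-H3122, and NOTCH1 was called lower in NCI-H2228 and, in a call that most alternatives lost, in SNU2535. NOTCH3 (ENSG00000074181, chr19:15159038-15200981, minus strand, GRCh38), a receptor best known from vascular smooth muscle and also expressed in epithelial tumours, measured 49.9, 43.9 and 47.8 TPM in the NCI-H3122 DMSO libraries and 80.6, 78.3 and 74.6 TPM in the TRI-611 libraries. Every treated library was above every control. The mean level went from 47.2 ± 3.06 to 77.8 ± 3.04 TPM (SD, n = 3), a log2 change of 0.71 (SE 0.0558, adjusted p = 7.45e-05). In SNU2535, NOTCH3 measured 45.9, 48.9 and 43.9 TPM under DMSO and 58.3, 52.8 and 47.6 TPM under TRI-611, and the groups overlapped. The change there was 0.19 (95% interval 0.01 to 0.36, adjusted p = 0.111) and was not called, but it passed without TRI-611 replicate 3 of that line (0.26, adjusted p = 0.0313). In NCI-H2228, DMSO libraries at 20.2, 20.0 and 22.0 TPM stood below TRI-611 libraries at 23.5, 23.3 and 23.0 TPM, with a log2 change of 0.16 (interval 0.04 to 0.28, adjusted p = 0.101) that was not called.

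NOTCH2 (ENSG00000134250, chr1:119911553-120069626, minus strand), the receptor with the highest level in SNU2535 and NCI-H2228, was low in NCI-H3122 and rose there. Its NCI-H3122 levels were 13.2, 12.3 and 12.7 TPM under DMSO and 17.2, 14.9 and 16.9 TPM under TRI-611. The groups did not overlap, and the log2 change was 0.33 (SE 0.0673, adjusted p = 0.00689). In SNU2535 the levels were 82.8, 86.5 and 84.4 TPM against 82.9, 83.7 and 76.9 TPM, overlapping, with a log2 change of -0.06 (interval -0.16 to 0.04). NCI-H2228 had 56.2, 53.4 and 55.2 TPM against 48.9, 53.0 and 53.2 TPM, narrowly apart, with a log2 change of -0.09 (interval -0.19 to 0.02). Neither change was called. NOTCH2 has a near-identical partial copy, listed as NOTCH2NL at 1.03 to 2.46 TPM, and how reads that fit both were counted is not given in the sources used here, so the NOTCH2 values are uncertain.

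NOTCH1 (ENSG00000148400, chr9:136494433-136545786, minus strand), a receptor with both tumour-promoting and tumour-suppressing roles by tissue, measured 21.1, 21.9 and 25.5 TPM in the NCI-H2228 DMSO libraries and 14.0, 16.9 and 17.3 TPM under TRI-611. All 3 treated libraries were lower than all 3 controls. The mean fell from 22.8 ± 2.31 to 16.1 ± 1.83 TPM (SD, n = 3), a log2 change of -0.48 (SE 0.0968, adjusted p = 0.016). The NCI-H2228 call was lost in 2 of 16 alternatives, with no filter (adjusted p = 0.0676) and in limma without trend and robust settings (0.0595). SNU2535 went from 13.2, 15.5 and 16.1 TPM to 12.7, 12.5 and 12.1 TPM, again without overlap, at a log2 change of -0.24 (SE 0.0772, adjusted p = 0.0497). That call was lost in 11 of 16 alternatives, among them the fit with the batch as a replicate block (adjusted p = 0.0785) and the fits without DMSO replicate 2 (0.135), DMSO replicate 3 (0.152) and TRI-611 replicate 1 (0.0846), 2 (0.0994) or 3 (0.127). NCI-H3122 libraries overlapped, at 23.1, 20.2 and 21.3 TPM under DMSO and 24.3, 22.3 and 20.8 TPM under TRI-611, with a log2 change of 0.06 (interval -0.11 to 0.22, adjusted p = 0.6).

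Among the ligands, JAG1 fell in SNU2535 and NCI-H3122, JAG2 rose in NCI-H3122, and DLL1 rose in NCI-H2228. JAG1 (ENSG00000101384, chr20:10637684-10673999, minus strand), a ligand of the Jagged class, measured 12.2, 12.9 and 12.7 TPM in SNU2535 under DMSO and 8.63, 8.49 and 7.79 TPM under TRI-611. In NCI-H3122 it measured 38.6, 36.6 and 40.0 TPM under DMSO and 25.0, 25.2 and 25.1 TPM under TRI-611. Both lines had every treated library below every control. The treated mean was 65.8% of the DMSO mean in SNU2535 (log2 change -0.55, SE 0.0635, adjusted p = 0.000561) and 65.4% in NCI-H3122 (-0.59, SE 0.0462, adjusted p = 7.22e-05), starting from levels that differed by a ratio of 3.04. NCI-H2228 had 12.1, 11.0 and 12.0 TPM against 10.4, 10.5 and 9.84 TPM, also apart, with a log2 change of -0.17 (interval -0.33 to -0.02, adjusted p = 0.147) that was not called. The antisense gene AL050403.2, at 0.00 to 0.229 TPM, shares 79 exonic bases with JAG1.

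JAG2 (ENSG00000184916, chr14:105140981-105168824, minus strand), the other Jagged-class ligand, measured 12.3, 11.8 and 12.6 TPM in NCI-H3122 under DMSO and 18.2, 19.6 and 21.7 TPM under TRI-611. The treated libraries were all higher, with a mean at 162% of DMSO and a log2 change of 0.65 (SE 0.0707, adjusted p = 0.000356). JAG1 and JAG2 thus moved in opposite directions in this line. In SNU2535, where JAG2 was the most abundant ligand, levels of 88.9, 96.5 and 89.8 TPM stood above 82.7, 85.4 and 77.7 TPM, a log2 change of -0.16 (SE 0.0492, adjusted p = 0.044). This call was lost in 10 of 16 alternatives, among them those without any 1 DMSO library (adjusted p = 0.0585, 0.117 and 0.0743 for replicates 1, 2 and 3) and without TRI-611 replicate 1 (0.0807) or 3 (0.129). NCI-H2228 libraries overlapped, at 15.1, 14.5 and 18.4 TPM under DMSO and 17.9, 18.8 and 17.6 TPM under TRI-611, with a change of 0.17 (interval -0.02 to 0.37, adjusted p = 0.251) that passed only without DMSO replicate 3 (0.27, adjusted p = 0.034). AL512356.1, on the same strand and at 0.00 to 3.47 TPM, shares 469 of the 6397 exonic bases of JAG2.

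DLL1 (ENSG00000198719, chr6:170282206-170306565, minus strand), a Delta-like ligand, was abundant in NCI-H2228 alone. Its NCI-H2228 levels were 32.2, 31.2 and 33.3 TPM under DMSO and 38.6, 35.2 and 41.0 TPM under TRI-611. The treated libraries were all higher, with a log2 change of 0.24 (SE 0.0615, adjusted p = 0.0424). The call was lost in 8 of 16 alternatives, among them those without any 1 DMSO library (adjusted p = 0.105, 0.131 and 0.0564 for replicates 1, 2 and 3) and without TRI-611 replicate 1 or 3 (0.118 each). NCI-H3122 went from 0.275, 0.363 and 0.477 TPM to 1.72, 2.00 and 2.12 TPM, and SNU2535 from 0.192, 0.164 and 0.250 TPM to 1.01, 0.537 and 0.855 TPM. In both lines all treated libraries were above all controls at low levels. The NCI-H3122 means were 0.372 ± 0.101 and 1.95 ± 0.203 TPM (SD, n = 3), a log2 change of 1.10 (SE 0.160, adjusted p = 0.00147). In NCI-H3122 the gene passed the filter only through its TRI-611 libraries, so this rise was favoured in advance. DLL1 was under the filter in SNU2535, and with no filter its log2 change there was 0.57 (adjusted p = 0.0613). The gene overlaps FAM120B, on the opposite strand at 15.3 to 61.8 TPM, with 0 shared exonic bases.

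Among the targets, HES1 and NRARP fell in SNU2535 and NCI-H3122, HES1 also in NCI-H2228, and HES4 fell in SNU2535. HES1 (ENSG00000114315, chr3:194136145-194138732, plus strand), the repressor whose promoter holds the TGGGAA matches shown above, measured 22.7, 24.1 and 25.0 TPM in SNU2535 under DMSO and 4.99, 5.04 and 6.43 TPM under TRI-611. The groups were far apart. The mean went from 24.0 ± 1.17 to 5.49 ± 0.818 TPM (SD, n = 3), 22.9% of the DMSO level, with a log2 change of -1.95 (SE 0.0941, adjusted p = 9.29e-06). This was the largest change of any member in any line on the log2(TPM + 1) scale. NCI-H3122 went from 80.7, 78.9 and 86.9 TPM to 60.2, 57.8 and 52.1 TPM, without overlap, to 69.0% of DMSO (log2 change -0.53, SE 0.0620, adjusted p = 0.000526). In NCI-H2228, levels of 31.3, 29.8 and 32.5 TPM stood above 25.4, 24.4 and 27.1 TPM, at 82.2% of DMSO (-0.27, SE 0.0568, adjusted p = 0.0181). The NCI-H2228 call was lost in 5 of 16 alternatives, among them those without the TRI-611 library of replicate 1 (adjusted p = 0.0623) or 2 (0.0542) and without the DMSO library of replicate 1 (0.0572).

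NRARP (ENSG00000198435, chr9:137300482-137302251, minus strand) encodes an ankyrin repeat protein that is induced by Notch and dampens it. It measured 20.9, 22.4 and 21.6 TPM in SNU2535 under DMSO and 9.88, 10.7 and 9.87 TPM under TRI-611. All treated libraries were low, and the mean was 46.9% of DMSO (log2 change -1.02, SE 0.0569, adjusted p = 1.89e-05). NCI-H3122 went from 22.6, 22.2 and 22.4 TPM to 16.6, 18.0 and 14.5 TPM, to 73.2% of DMSO (-0.43, SE 0.0757, adjusted p = 0.00365), again without overlap. In NCI-H2228, levels of 23.0, 23.0 and 24.1 TPM lay just below 25.1, 26.7 and 24.5 TPM, with a log2 change of 0.12 (interval -0.01 to 0.24, adjusted p = 0.215) that was not called. NRARP thus began at like levels in the 3 lines and was low after TRI-611 in 2 of them.

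HES4 (ENSG00000188290, chr1:998962-1000172, minus strand), a HES family repressor without a mouse counterpart, measured 92.7, 106 and 96.1 TPM in SNU2535 under DMSO and 58.5, 61.6 and 63.3 TPM under TRI-611. The groups did not overlap, and the mean fell to 62.3% of DMSO (log2 change -0.67, SE 0.0566, adjusted p = 0.000118). In NCI-H3122 the treated libraries were instead the higher ones, at 56.3, 61.9 and 59.2 TPM against 53.7, 44.7 and 51.2 TPM, with a log2 change of 0.25 (SE 0.0708, adjusted p = 0.0313). That call was lost in 7 of 16 alternatives. These were no filter (adjusted p = 0.0905), limma without trend and robust settings (0.0685) and the replicate block (0.0594). The others left out the DMSO library of replicate 2 (0.0646) or 3 (0.0551), or the TRI-611 library of replicate 2 (0.0914) or 3 (0.0717). NCI-H2228 libraries overlapped, at 25.7, 27.3 and 30.7 TPM and 30.6, 25.8 and 23.8 TPM, with a change of -0.06 (interval -0.29 to 0.17).

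HEY1 (ENSG00000164683, chr8:79764010-79767863, minus strand), a target repressor related to the HES proteins, was called in no line. In NCI-H3122 it measured 7.00, 7.29 and 8.48 TPM under DMSO and 9.13, 8.17 and 10.2 TPM under TRI-611, overlapping, with a log2 change of 0.24 (interval 0.01 to 0.47, adjusted p = 0.101). NCI-H2228 had 4.45, 4.33 and 3.93 TPM against 5.76, 6.34 and 4.88 TPM, with the treated libraries all higher and a change of 0.34 (interval 0.09 to 0.59, adjusted p = 0.0854). SNU2535 had under 1 TPM in every library, with 0.624, 0.819 and 0.374 TPM against 0.305, 0.491 and 0.772 TPM, and was not tested.

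**Figure D2:**
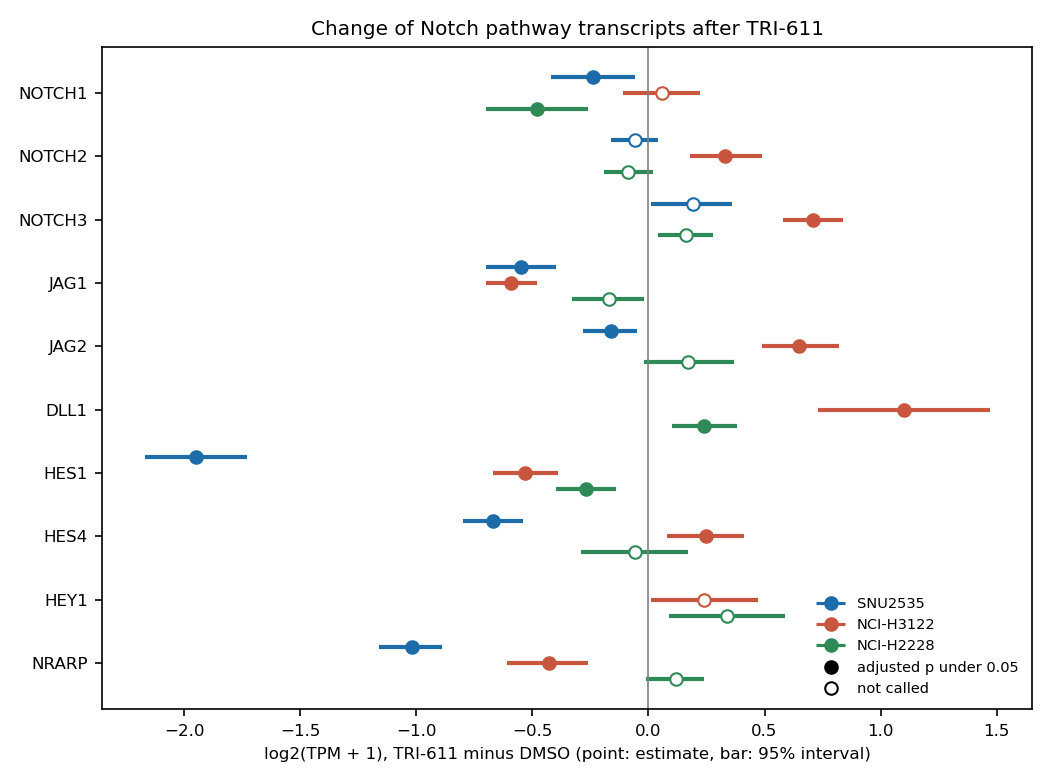
Change of each member on the log2(TPM + 1) scale, TRI-611 minus DMSO (horizontal axis, 0 marked by a vertical line), with points for limma's estimate, bars for its 95% interval and a colour per line. Filled points have an adjusted p under 0.05: HES1 in SNU2535 lies farthest left at -1.95, and NOTCH3, JAG2 and DLL1 in NCI-H3122 lie to the right at 0.71, 0.65 and 1.10.

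Summed TPM of each role showed where the levels lay. In SNU2535 the 3 receptors summed to 146 ± 4.67 TPM (SD, n = 3) under DMSO and 146 ± 8.98 TPM under TRI-611, with NOTCH2 at 58.0% and 55.5% of the sum. In NCI-H3122 the sum was 81.5 ± 4.87 TPM and 117 ± 4.97 TPM, and the share of NOTCH3 was 57.9% and 66.8%. NCI-H2228 had 98.5 ± 3.73 and 91.0 ± 4.03 TPM, most of it NOTCH2. The leading ligand by share also differed by line: JAG2 in SNU2535 (87.7% under DMSO), JAG1 in NCI-H3122 (75.3%) and DLL1 in NCI-H2228 (53.9%). In NCI-H3122 the ligand sum was 51.0 ± 2.15 TPM under DMSO and 46.9 ± 2.01 TPM under TRI-611, while the share of JAG1 was 75.3 ± 0.184% and 53.6 ± 2.15% and that of JAG2 24.0 ± 0.232% and 42.2 ± 1.93%. The 4 targets summed to 144 ± 8.30 and 77.3 ± 3.37 TPM in SNU2535. They summed to 162 ± 8.04 and 141 ± 4.98 TPM in NCI-H3122, and to 86.7 ± 3.97 and 83.5 ± 3.37 TPM in NCI-H2228. These sums are descriptions and were not tested.

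**Figure D3:**
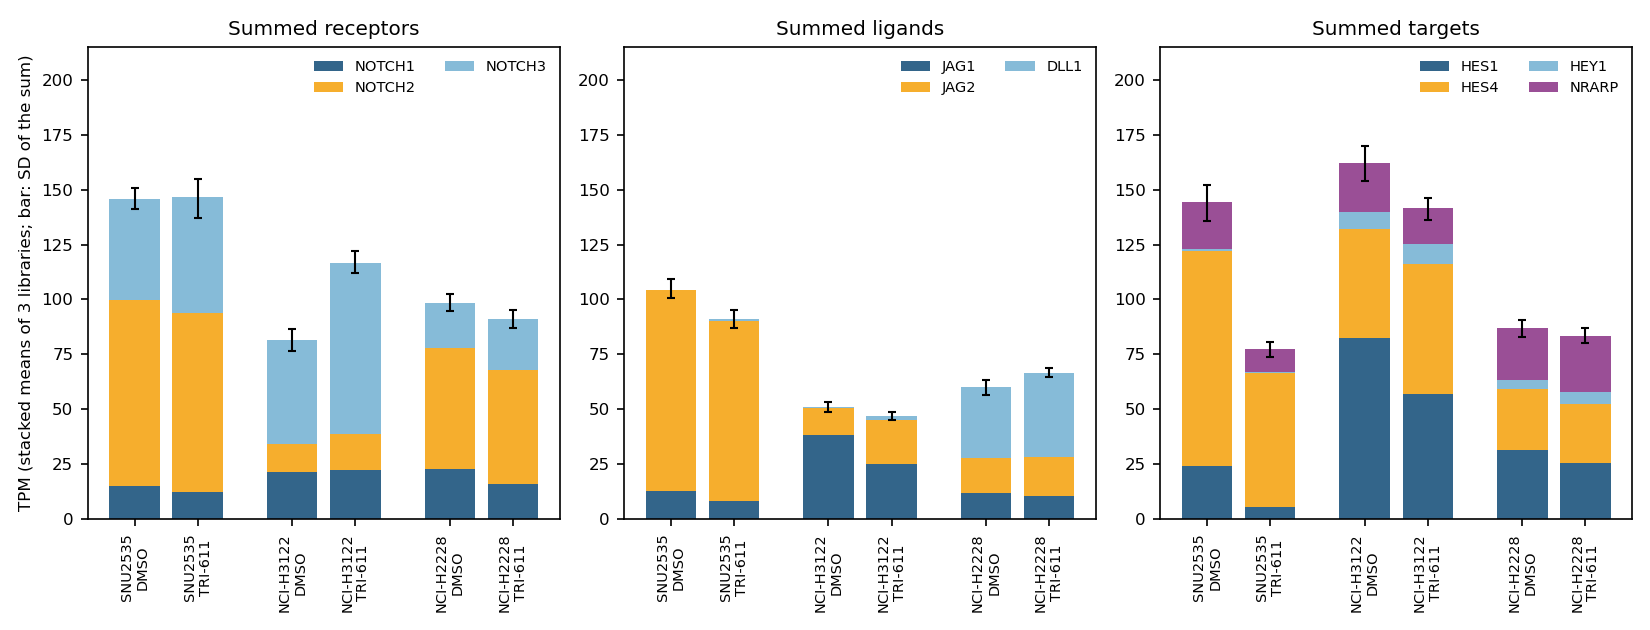
Stacked mean TPM of the receptors, ligands and targets (vertical axis, from 0) in the 6 groups (horizontal axis), with bars for the SD of the sum over 3 libraries and a colour per gene. The target stack of SNU2535 stands at 144 TPM under DMSO and 77.3 TPM under TRI-611. Under either treatment the leading ligand is JAG2 in SNU2535, JAG1 in NCI-H3122 and DLL1 in NCI-H2228.

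The difference between lines in the response was tested directly as an interaction on the 12 libraries of each pair. Between SNU2535 and NCI-H3122, 6 of 8 tested members differed, all more negative in SNU2535, where 20.1% of all genes were called, 3.71% higher and 16.4% lower. The differences were -1.42 for HES1 (SE 0.116, adjusted p = 7e-06), -0.92 for HES4, -0.81 for JAG2, -0.59 for NRARP, -0.52 for NOTCH3 and -0.39 for NOTCH2. JAG1 responded with -0.55 and -0.59, a difference of 0.04 (95% interval -0.12 to 0.20, adjusted p = 0.739), and NOTCH1 with a difference of -0.30 (interval -0.53 to -0.06, adjusted p = 0.0725) that passed without SNU2535 DMSO replicate 1 (adjusted p = 0.0202) or NCI-H3122 TRI-611 replicate 3 (0.0499). The median difference of the 8 members was -0.56, beside -0.09 over all genes.

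Between SNU2535 and NCI-H2228, 4 of 8 tested members differed, all more negative in SNU2535, against 10.6% of all genes, 2.74% higher and 7.83% lower. HES1 differed by -1.68 (SE 0.112, adjusted p = 1.57e-06), NRARP by -1.14 (SE 0.0742, adjusted p = 1.28e-06), HES4 by -0.61 (adjusted p = 0.00843) and JAG1 by -0.38 (adjusted p = 0.0149), the last of which was lost under quantile normalization (0.0531). All 3 targets tested were thus among the 4. JAG2 differed by -0.34 (interval -0.56 to -0.11, adjusted p = 0.0575), which passed without NCI-H2228 DMSO replicate 3 (adjusted p = 0.00293). The receptors were not called, with intervals of -0.05 to 0.52 for NOTCH1, -0.11 to 0.17 for NOTCH2 and -0.18 to 0.23 for NOTCH3. The median was -0.36 for the members and -0.04 over all genes.

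Between NCI-H3122 and NCI-H2228, 7 of 10 members differed, 5 higher in NCI-H3122 and 2 lower, against 14.3% of all genes, 8.99% higher and 5.34% lower. All 3 receptors responded more positively in NCI-H3122, by 0.54 for NOTCH1, 0.42 for NOTCH2 and 0.55 for NOTCH3 (SE 0.0758, adjusted p = 0.000334). JAG2 (0.48) and DLL1 (0.86) did so as well, the latter after entering the NCI-H3122 test only through its treated libraries and with the call lost at a pseudocount of 5 (adjusted p = 0.192). JAG1 (-0.42) and NRARP (-0.55) responded more negatively. HES1 differed by -0.26 (interval -0.44 to -0.07, adjusted p = 0.0651) and passed without NCI-H3122 TRI-611 replicate 1 (-0.30, adjusted p = 0.0375), HES4 by 0.31 (interval 0.02 to 0.60, adjusted p = 0.155) and passed without NCI-H2228 TRI-611 replicate 1 (0.41, adjusted p = 0.04), and HEY1 by -0.10 (interval -0.42 to 0.22). The median was 0.37 for the members and 0.05 over all genes. The 3 pairs share libraries, so their results are not independent of each other.

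The lines also differed in the levels of these genes without TRI-611. Over the 9 DMSO libraries, 7 of 10 members differed between SNU2535 and NCI-H3122 (3 higher and 4 lower in SNU2535), 9 of 10 between SNU2535 and NCI-H2228 (4 and 5), and 8 of 10 between NCI-H3122 and NCI-H2228 (5 higher and 3 lower in NCI-H3122). Both counts against NCI-H2228 include DLL1, which passed the filter only through the libraries of that line. Its lower level in the other lines was thus favoured in advance. Most genes differed between these lines: 76.1% were called for the first pair (45.4% higher, 30.7% lower), 75.0% for the second (32.4% and 42.6%) and 79.3% for the third (30.0% and 49.3%), so the counts of members lay near the background. The median difference over all genes was 0.16, -0.11 and -0.25, and median-ratio scaling moved it to 0.01, -0.03 and -0.01. Under that scaling the members split 3 higher and 7 lower, 5 and 4, and 7 and 2.

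By gene, the order of DMSO levels was as follows. NOTCH2 was highest in SNU2535 (84.6 ± 1.87 TPM, SD, n = 3), lower in NCI-H2228 (54.9 ± 1.41) and lowest in NCI-H3122 (12.7 ± 0.421), a ratio of 6.65 between the ends, and each step was called. NOTCH3 stood at 47.2 ± 3.06 TPM in NCI-H3122 and 46.2 ± 2.54 TPM in SNU2535, a log2 difference of -0.03 (interval -0.17 to 0.11) that was called under median-ratio scaling (-0.23, adjusted p = 0.00207), and at 20.7 ± 1.07 TPM in NCI-H2228. NOTCH1 was lowest in SNU2535 (mean 15.0 TPM, 13.2 to 16.1 TPM over 3 libraries), while NCI-H3122 (21.5 ± 1.44) and NCI-H2228 (22.8 ± 2.31) differed by -0.08, which became 0.21 and called under median-ratio scaling (adjusted p = 0.0282). The receptors thus each had their own order of lines.

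The 3 ligands were led by a different line each. JAG2 stood at 91.7 ± 4.14 TPM in SNU2535, 16.0 ± 2.09 in NCI-H2228 and 12.2 ± 0.406 in NCI-H3122. The difference of -0.35 between NCI-H3122 and NCI-H2228 (adjusted p = 0.00248) was not called under median-ratio scaling (-0.07, adjusted p = 0.356) and was 0.02 after quantile normalization. JAG1 stood at 38.4 ± 1.70 TPM in NCI-H3122, with SNU2535 (12.6 ± 0.333) and NCI-H2228 (11.7 ± 0.610) not called apart (0.11, adjusted p = 0.0961) except under either scaling alternative. DLL1 was at 32.2 ± 1.06 TPM in NCI-H2228, 0.372 ± 0.101 in NCI-H3122 and 0.202 ± 0.0437 in SNU2535, so that it passed the filter only through NCI-H2228. The 2 low lines were not called apart (-0.19, adjusted p = 0.0704), but were without NCI-H3122 DMSO replicate 1 (-0.24, adjusted p = 0.0408) and under both scalings.

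Of the targets, HES1 was highest in NCI-H3122 (82.2 ± 4.18 TPM), followed by NCI-H2228 (31.2 ± 1.35) and SNU2535 (24.0 ± 1.17), with every step called. HES4 had another order, at 98.2 ± 6.90 TPM in SNU2535, 49.9 ± 4.61 in NCI-H3122 and 27.9 ± 2.56 in NCI-H2228, again with every step called. HEY1 stood at 7.59 ± 0.786 TPM in NCI-H3122, 4.24 ± 0.273 in NCI-H2228 and 0.606 ± 0.223 in SNU2535, all called apart. NRARP hardly varied, at 23.4 ± 0.668 TPM in NCI-H2228, 22.4 ± 0.169 in NCI-H3122 and 21.6 ± 0.753 in SNU2535. The outer pair differed by -0.11 (adjusted p = 0.0389), a call lost in 13 of 18 alternatives, among them the replicate block (0.0594) and the fits without any 1 DMSO library but SNU2535 replicate 2 (0.052 to 0.135). Both neighbouring steps of NRARP were not called, but both were under median-ratio scaling, with SNU2535 minus NCI-H3122 at -0.24 and NCI-H3122 minus NCI-H2228 at 0.23.

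A further 54 genes of the pathway were examined by role. In SNU2535, 12 of 45 tested were called (7 higher, 5 lower; 12 and 5 after quantile normalization), in NCI-H3122 23 of 45 (17 higher, 6 lower; 13 and 8 under median-ratio scaling), and in NCI-H2228 7 of 46 (5 higher, 2 lower; 6 and 1 after quantile normalization). These stand beside the backgrounds of 28.7%, 34.1% and 11.2% given above, and beside medians of -0.01, 0.11 and 0.06 against -0.02, 0.05 and 0.01 over all genes. Without NCI-H3122 DMSO replicate 3 the NCI-H3122 count was 15. The NCI-H2228 count was 3 on leaving out either library of replicate 1, and 4 on leaving out either library of replicate 2 or the TRI-611 library of replicate 3. A total of 5 genes was called in the same direction in all 3 lines: LFNG, CIR1, CREBBP and TLE1 higher, and CTBP2 lower.

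LFNG (ENSG00000106003, chr7:2512529-2529177, plus strand) encodes lunatic fringe, a Golgi glycosyltransferase that modifies Notch receptors and shifts their preference among ligands. It measured 26.5, 29.6 and 28.9 TPM in SNU2535 under DMSO and 91.0, 96.2 and 101 TPM under TRI-611, a log2 change of 1.72 (SE 0.0562, adjusted p = 1.87e-06). NCI-H3122 went from 88.0, 82.2 and 88.1 TPM to 159, 182 and 176 TPM (0.99, adjusted p = 1.72e-05), and NCI-H2228 from 17.4, 18.6 and 20.4 TPM to 36.8, 35.5 and 37.5 TPM (0.93, adjusted p = 7.03e-05). All treated libraries were above all controls in each line, and the call was made in all 16 alternatives per line. LFNG was the only 1 of the 4 tested glycosylation genes called in any line. Whether its rise differed between lines was not tested.

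**Figure D4:**
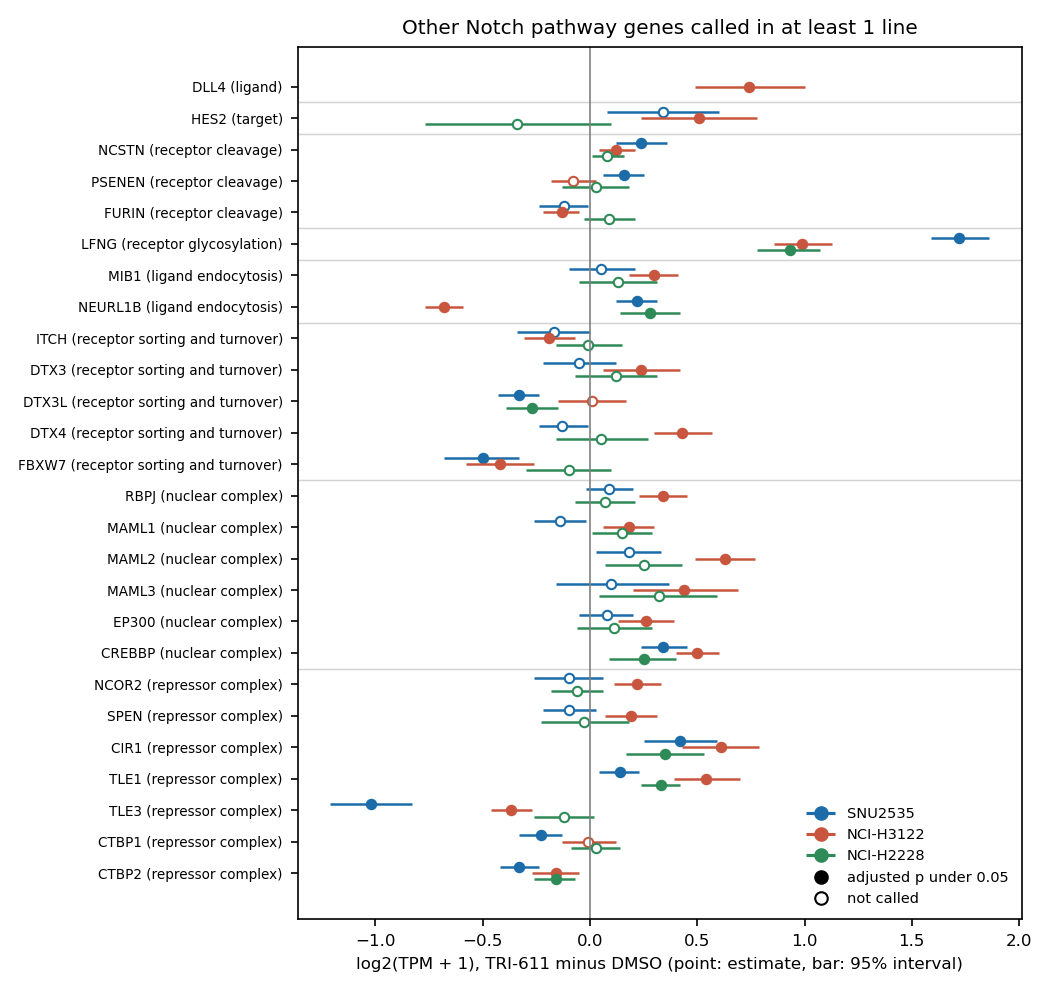
Change of the other pathway genes called in at least 1 line, by role (vertical axis), on the log2(TPM + 1) scale, TRI-611 minus DMSO (horizontal axis), with points for limma's estimate, bars for the 95% interval and filled points for an adjusted p under 0.05. LFNG lies far right in all 3 lines (1.72, 0.99 and 0.93), TLE3 far left in SNU2535 (-1.02), and the called nuclear complex genes of NCI-H3122 lie right of 0.

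In the nuclear complex that reads out Notch cleavage, 6 of 7 tested genes rose in NCI-H3122, where 20.6% of all genes were called higher: the DNA-binding partner RBPJ, the Mastermind coactivators MAML1, MAML2 and MAML3, and the acetyltransferases EP300 and CREBBP. The other gene tested there, SNW1, was not called, with changes of -0.14 to -0.03 over 16 alternatives. It was called, lower, under median-ratio scaling. RBPJ measured 23.3, 23.4 and 23.9 TPM under DMSO and 29.7, 31.6 and 29.1 TPM under TRI-611 there (log2 change 0.34, SE 0.0475, adjusted p = 0.00118), and MAML2 12.7, 11.7 and 12.3 TPM against 18.5, 19.4 and 20.5 TPM (0.63, SE 0.0589, adjusted p = 0.000172). The treated libraries were higher throughout for both. The call of MAML1 (0.18, adjusted p = 0.0289) was lost in 9 of 16 alternatives (up to 0.0911), among them the replicate block (0.0727) and the fits without any 1 library but TRI-611 replicate 3. That of MAML3 (0.44, adjusted p = 0.0149) was lost in 2 of 15 (up to 0.0604), after quantile normalization and without DMSO replicate 3. In SNU2535 and NCI-H2228, where 10.7% and 4.80% of all genes were called higher, 1 of 8 was called, CREBBP in each. CREBBP changed by 0.34 and 0.25 there, and by 0.50 in NCI-H3122. The NCI-H2228 call of CREBBP (adjusted p = 0.0493) was lost in 7 of 16 alternatives, up to an adjusted p of 0.149, and on leaving out any 1 library but DMSO replicate 3. RBPJ changed by 0.09 in SNU2535 (interval -0.02 to 0.20) and 0.07 in NCI-H2228 (interval -0.07 to 0.21). In the same order, MAML2 changed by 0.18 (interval 0.03 to 0.33) and 0.25 (interval 0.07 to 0.43). MAML3 changed by 0.10 and 0.32, and MAML1 by -0.14 and 0.15. None of these was called. Differences in response between lines were not tested for these genes or for the corepressors below.

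The corepressors moved in both directions. TLE3, a Groucho family corepressor recruited by HES proteins, went from 11.3, 12.0 and 11.3 TPM to 5.57, 5.36 and 4.61 TPM in SNU2535 (-1.02, SE 0.0821, adjusted p = 9.7e-05) and from a mean of 40.7 ± 0.883 to 31.4 ± 0.708 TPM in NCI-H3122 (-0.37, adjusted p = 0.000426). Its relative TLE1 rose, by 0.14 in SNU2535, 0.54 in NCI-H3122 and 0.33 in NCI-H2228, with the SNU2535 call (adjusted p = 0.042) lost in 8 of 16 alternatives, up to 0.132, among them the replicate block (0.0845) and the fits without either library of replicate 1 or 3. CIR1, a corepressor that binds RBPJ, rose by 0.42, 0.61 and 0.35 in the same order, with the NCI-H2228 call (adjusted p = 0.0251) lost in 6 of 16, up to 0.0923, among them the replicate block (0.0777) and the fits without either library of replicate 1 or the TRI-611 library of replicate 3. CTBP2, another corepressor, fell by 0.33, 0.16 and 0.16, in the same order. The NCI-H3122 call of CTBP2 was lost in 8 of 16 alternatives (up to 0.124), among them the replicate block (0.0788) and the fits without any 1 library but DMSO replicate 2, and its NCI-H2228 call in 9 of 16 (up to 0.102), among them those without any 1 library.

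Of 8 tested genes of receptor sorting and turnover, 2 were called in SNU2535 (both lower), 4 in NCI-H3122 (2 in each direction) and 1 in NCI-H2228 (lower), and of 3 tested genes of ligand endocytosis 1, 2 and 1. Over all genes, 28.7%, 34.1% and 11.2% were called in these lines. The turnover counts of SNU2535 and NCI-H2228 lay near those shares. Differences between lines were not tested for these genes. FBXW7, the ubiquitin ligase subunit that marks the Notch intracellular domain for degradation, went from 8.25, 8.39 and 8.13 TPM to 5.13, 5.85 and 5.64 TPM in SNU2535 (-0.50, SE 0.0744, adjusted p = 0.00189) and changed by -0.42 in NCI-H3122 (adjusted p = 0.00284). NEURL1B, a ubiquitin ligase that promotes ligand endocytosis, went from 105, 102 and 103 TPM to 66.7, 62.3 and 63.1 TPM in NCI-H3122 (-0.68, SE 0.0391, adjusted p = 1.68e-05). In the other lines its treated libraries were all higher, with changes of 0.22 in SNU2535 (adjusted p = 0.00727) and 0.28 in NCI-H2228 (adjusted p = 0.0206), the latter lost in 4 of 16 alternatives, those without either library of replicate 1 or 2 (up to 0.0894). DLL4, a Delta-like ligand known from vessel sprouting, went from 1.94, 1.63 and 1.94 TPM to 4.06, 3.49 and 3.70 TPM in NCI-H3122 (0.74, SE 0.109, adjusted p = 0.00158). It was under the filter in both other lines.

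Factors that HES1 is known to hold back in other tissues were also read. INSM1, NEUROD1, NEUROG3 and ATOH1, neuroendocrine or secretory lineage factors, passed the filter in no line (0 of 4), and the highest group mean was 0.0668 TPM, for NEUROG3 in SNU2535 under TRI-611. Most libraries listed each of these genes at 0, and every library listed ATOH1 at 0.

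Over the 18 libraries, the genes most like each member were named by Pearson's r of log2(TPM + 1) among 19939 genes. The libraries share lines and treatments, so r reflects the order of the 6 groups and is a description. HES1 was most like SPRED2 (0.993) and PTP4A1 (0.984). NOTCH2 was most like TNFSF9 (0.998) and TGFBI (0.997), NOTCH3 like INCENP and NARF (0.989 each), and NOTCH1 like PPARGC1B (0.929) and MRPS7 (0.924). JAG1 followed NOL10 (0.992) and ATP2B1 (0.991), JAG2 followed TOM1L2 (0.994) and SYTL2 (0.993), and DLL1 followed PSMG3-AS1 (0.995) and HECW2 (0.994). HES4 was nearest to NUP62 (0.975) and RTL10 (0.971), HEY1 to RAP1GAP2 (0.989) and MARCKS (0.988), and NRARP to FAM83G (0.947) and LARP1 (0.941). NRARP and NOTCH1 had the lowest best matches of the 10 members.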

How the data were processed

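The authors deposited 1 table of TPM values for 57500 genes in 18 libraries, summing to 1000000 per library, of which 485 genes have no name. GRCh38 is the build in the submitters' processing notes, and the tools listed there are STAR 2.5.2b, fastp 0.23.1, DESeq2, Subread 1.5.2 and featureCounts. Not given in the sources used here are the strand setting, the annotation, the calculation of TPM and the use made of the molecular identifiers that the library kit adds, so reads of overlapping genes on opposite strands cannot be told apart. TPM keeps no read totals, and no interval for counting error can be given.

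Here, log2(TPM + 1) was fitted in limma 3.58.1 (R 4.3.3; trend and robust settings) over genes at 1 TPM or more in at least 3 libraries fitted: the 6 libraries of a line for treatment, 12 of a pair of lines for differences in response (genes passing in both), and the 9 DMSO libraries for levels. Tests were two-sided with Benjamini-Hochberg adjustment over all genes tested and a threshold of 0.05. The script was tested on simulated data. Gene positions are from GENCODE release 29 and promoters from RefSeq (GRCh38.p14). Alternatives were pseudocounts of 0.1 and 5, no filter, a filter of 5 TPM, median-ratio scaling, quantile normalization, limma without trend and robust settings, all 18 libraries in 1 fit, a replicate block, each library left out and, chosen after seeing the data, TPM without mitochondrially encoded genes. The labels give a batch equal to the replicate number, which therefore pairs DMSO with TRI-611 libraries, and the deviations of paired libraries correlated over genes at -0.0228, 0.0437 and 0.00966 (SNU2535), -0.0865, -0.029 and 0.0152 (NCI-H3122) and 0.101, 0.00343 and 0.083 (NCI-H2228).

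The members, the lists of other pathway genes and markers, and the tests were chosen with earlier results of these data known, and 1 listed gene is not reported here. Named were all members, other pathway genes called in all 3 lines in 1 direction, the 3 with the largest called change per line, and the 2 genes with the highest correlation to each member. RBPJ, MAML1, MAML2, MAML3, EP300 and SNW1 were named after their values were seen.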

Additional observations from a re-analysis of the deposited data

Results flagged for a closer look

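A total of 17 differences in response between lines passed the interaction test. The pairs of lines share libraries, so these results are not independent of each other. Tested were 8 members for SNU2535 minus NCI-H3122, 8 for SNU2535 minus NCI-H2228 and 10 for NCI-H3122 minus NCI-H2228. Over all genes, 20.1%, 10.6% and 14.3% were called, in the same order. Each called difference is given as the log2 change in the first line minus that in the second. For SNU2535 minus NCI-H3122 they were HES1 (-1.42), HES4 (-0.92), JAG2 (-0.81), NRARP (-0.59), NOTCH3 (-0.52) and NOTCH2 (-0.39), with limma's adjusted p from 7e-06 to 0.00372. For SNU2535 minus NCI-H2228 they were HES1 (-1.68), NRARP (-1.14), HES4 (-0.61) and JAG1 (-0.38), with adjusted p from 1.28e-06 to 0.0149. For NCI-H3122 minus NCI-H2228 they were DLL1 (0.86), NOTCH3 (0.55), NOTCH1 (0.54), JAG2 (0.48), NOTCH2 (0.42), JAG1 (-0.42) and NRARP (-0.55), with adjusted p from 0.000298 to 0.0156. The lowest of these p-values is that of DLL1, which passed the filter in NCI-H3122 only through its treated libraries. Its call was lost at a pseudocount of 5 (0.16, adjusted p = 0.192).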

How the results depend on the processing

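Over the members, 84 treatment changes, differences in response and DMSO levels were recomputed under 12 to 21 alternatives each, for 1515 values: 1410 kept direction and side of the threshold, 59 lost the call, 30 gained it and 16 changed sign. In NCI-H2228 the count of called members (3) was 0 with no filter and 0 in limma without trend and robust settings, with 6 at an unadjusted p under 0.05 in each, and 1 to 3 with 1 library left out (1 without DMSO replicate 1 or TRI-611 replicate 1). The count of other pathway genes there (7) was 4 with no filter, 3 without trend and robust settings and 3 to 9 with 1 library left out, and that in NCI-H3122 (23) was 15 to 19. With the replicate block, 5 members were called in SNU2535, 7 in NCI-H3122 and 3 in NCI-H2228. The block ended the calls of NOTCH1 in SNU2535, HES4 in NCI-H3122 and the NRARP level of SNU2535 against NCI-H2228, and changed no other member's call. Among the other pathway genes it changed 7 calls, all lost: CIR1 in NCI-H2228, PSENEN and TLE1 in SNU2535, and CTBP2, DTX3, MAML1 and NCSTN in NCI-H3122.

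Of the sign changes, the largest were in DMSO levels under scaling. The NOTCH1 treatment change in NCI-H3122 was -0.01 under median-ratio scaling and from -0.00023 (without TRI-611 replicate 1) to 0.11 with 1 library left out, and that of HES4 in NCI-H2228 ran from -0.16 to 0.01 (without either library of replicate 3). With 1 library left out, the difference in response of SNU2535 minus NCI-H2228 ran from -0.01 (without NCI-H2228 TRI-611 replicate 1) to 0.07 for NOTCH2 and from -0.04 (without SNU2535 TRI-611 replicate 1) to 0.10 for NOTCH3, and the NOTCH3 level of SNU2535 minus NCI-H3122 from -0.08 to 0.01. For the levels of NCI-H3122 minus NCI-H2228, NOTCH1 was 0.21 under median-ratio scaling, 0.24 after quantile normalization and -0.13 to 0.000282 (without NCI-H2228 DMSO replicate 3) with 1 library left out, NRARP was 0.23 and 0.25 under the 2 scalings (adjusted p = 0.000142 and 0.000103), both genes being called in the opposite direction under either scaling though not called as deposited, and JAG2 was 0.02 after quantile normalization. The cause was not tested.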
